A study of Mus musculus with 9 samples.

Results

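Ephrins and Eph receptors were followed in RNA sequencing of the anterior lens capsule of mice, across 9 libraries. The capsule is the basement membrane that encloses the lens, and its anterior part carries the lens epithelium. The members are 9 genes, taken by symbol from a table of 17527 genes. They are the A-class receptors Epha2, Epha4 and Epha7, the B-class receptors Ephb2 and Ephb4, the A-class ligands Efna1 and Efna5, and the B-class ligands Efnb1 and Efnb2. The other 13 genes of the family in the table were read beside them. Libraries came from young control mice, old control mice and old mice given EGCG (epigallocatechin gallate, the main catechin in green tea), with 3 libraries a group. Strain, ages, dose, route and duration were not given in the sources used here, and no allele or other agent is named for any group. The labels do not say whether the 3 libraries of a group come from separate animals or from pools, so p-values speak only of the spread between these samples, and that spread may be technical.

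Eph receptors are receptor tyrosine kinases, and ephrins are their ligands on the surface of neighbouring cells. A-class ephrins are held in the membrane by a lipid anchor and B-class ephrins cross it, so contact can signal into the receptor cell and, in reverse, into the ligand cell. The system guides axons, separates arteries from veins and keeps cell sheets in order. In the lens, loss of EphA2 or ephrin-A5 in mice disturbs cell packing and can lead to cataract, and variants of human EPHA2 cause inherited and age-related cataract.

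In old against young control capsule, Epha2 was 2.38-fold higher and Efna1, Efna5, Efnb2 and Ephb4 rose less, while Epha4, Epha7 and Ephb2 fell. In old EGCG against old control capsule, Efna5 and Ephb4 were lower, Epha4 and Epha7 were higher at low counts, and Epha2 did not pass the test. All 9 members passed the filter on low counts. With age 5 members were called higher and 3 lower, at an edgeR adjusted p under 0.05 over all genes tested, and Efnb1 was not called. Of the 13711 genes tested 69.2% were called in that comparison, 35.4% higher and 33.8% lower, so a call by itself says little about the members. With library size only, in place of TMM, 2937 genes were called higher and 6445 lower with age, against 4847 and 4635, and the median of all genes moved from 0.02 to -0.30, while 5 members were again higher and 3 lower. The members' median log2 fold change with age was 0.49 with TMM, next to 0.02 over all genes tested, and it moved to 0.17 with library size only.

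**Figure D1:**
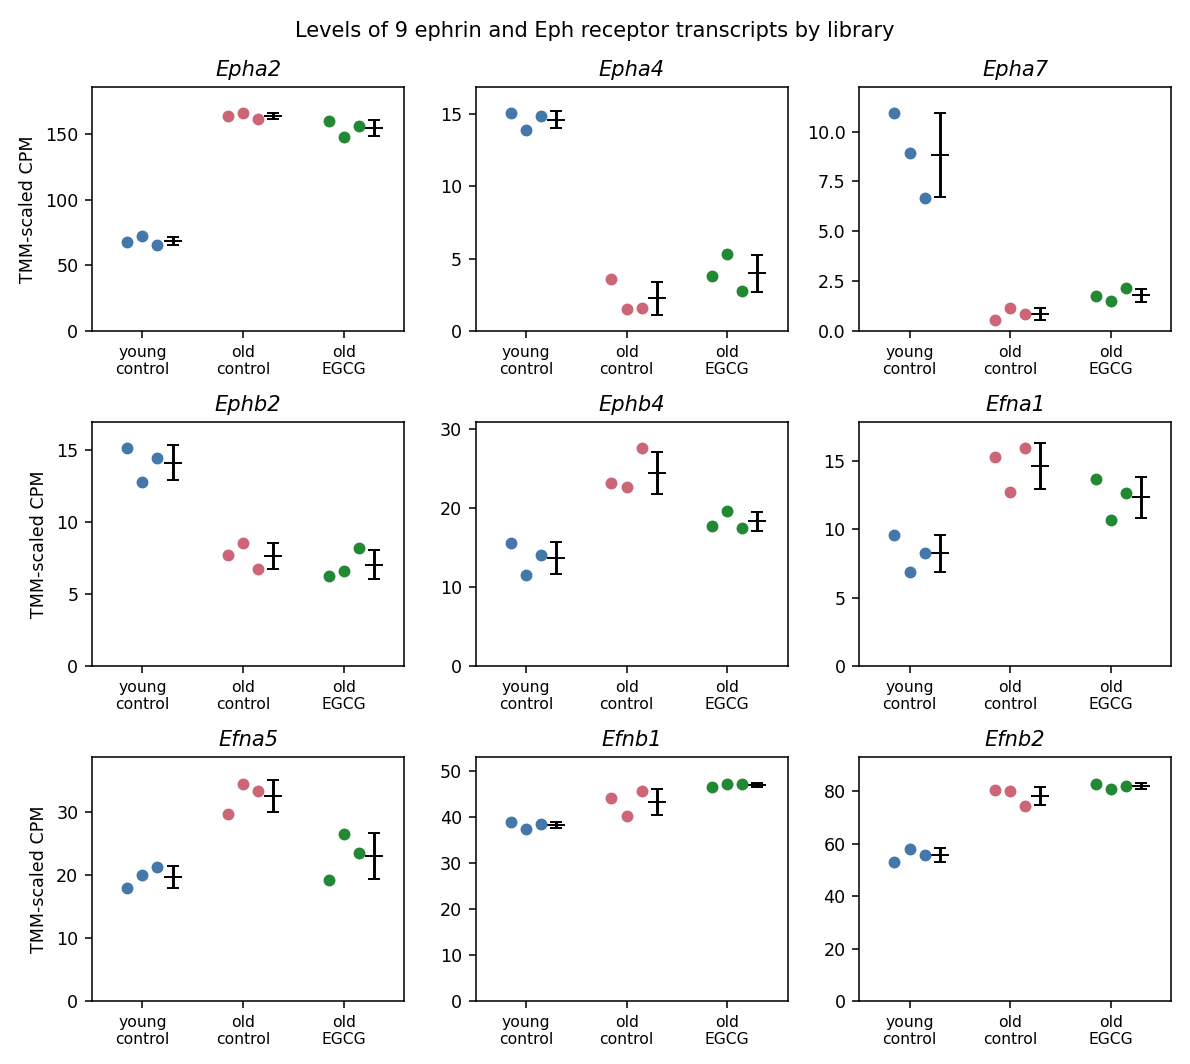
CPM (counts relative to the TMM-scaled library total) of each member in each library (points, left to right replicates 1 to 3), with the mean and SD of the 3 libraries of a group in black; each vertical axis starts at 0. Epha2 sits at 65.8 to 72.1 CPM in young control libraries and above 147 CPM in all old libraries, whereas Epha4 and Epha7 are highest in the young control libraries.

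Levels within a gene are given as CPM scaled by TMM factors, which correct library totals for differences in composition. Library totals ranged from 13184169 to 16528179 counts, and 3 counts correspond to 0.183 to 0.232 CPM. Lens epithelium markers were present, among them Foxe3 at 105, 187 and 149 CPM in young control, old control and old EGCG libraries. The libraries also held retinal RNA. The summed level of 26 photoreceptor markers was 26276 to 26473 CPM in young control, 1531 to 1597 in old control and 11530.2 to 11765 in old EGCG libraries, and that of 20 inner retina and ganglion cell markers was 784 to 805, 201 to 205 and 404 to 416 CPM. The summed level of 12 endothelial markers was 147 to 149, 52.2 to 54.1 and 42.1 to 47.8 CPM, and that of 20 lens epithelium markers was 5039 to 5098, 8455 to 8572 and 7902 to 7986 CPM. For 6 mural markers, mostly Acta2, the sum was 397 to 421, 839 to 889 and 616 to 652 CPM, and for 6 corneal epithelium markers, mostly Aldh3a1 and with Krt14 at 0 in old control, it was 229 to 239, 1095 to 1142 and 821 to 842 CPM. Red blood cell markers (5 genes) summed to 205 to 215, 6.34 to 7.98 and 20.2 to 24.9 CPM, 11 pigment markers to 321 to 339, 261 to 282 and 203 to 212 CPM, and 8 macrophage and leukocyte markers to 28.1 to 29.8, 30.5 to 37.6 and 29.2 to 33.7 CPM. No marker of the first 4 lists was at 0 in all libraries of a group. The parts of these other cell types in the changes below were not tested. In bulk tissue, fewer cells of a type and less RNA per cell cannot be told apart.

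Epha2 encodes the EphA receptor best known in the lens, where it is made by epithelial and fibre cells (chromosome 4, 141301240 to 141329384, plus strand, protein coding, GRCm38). Its level was 67.7, 72.1 and 65.8 CPM in young control libraries 1 to 3, 163, 165 and 161 in old control and 159.9, 148 and 156 in old EGCG libraries. Old and young libraries were far apart, with no overlap, and all 6 old libraries lay above 147 CPM. The means were 68.5 ± 3.26, 163 ± 2.29 and 154 ± 6.29 CPM (SD, n = 3 each). The rise with age was 2.38-fold (a log2 change of 1.25 with an SE of 0.0584, edgeR adjusted p = 8.29e-24). It was called in the same direction under all 19 alternatives, with log2 fold changes from 0.90 to 1.32. Of the 20 lens epithelium markers 12 were called higher with age and 4 lower, and their part in the rise of Epha2 was not tested. With EGCG the log2 difference from old control was -0.08 (95% interval -0.19 to 0.03, adjusted p = 0.332). Scaled by library size only, this difference had the other sign, at 0.05.

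To show what lies upstream of the receptor among the 9 members that rose most with age and of the pair among them that fell most, the windows from 250 bases before to 50 bases after the start site of Epha2, Epha4 and Epha7 are printed from RefSeq (GRCm38.p6; all 9 members matched by symbol, and for Epha7, which has 2 entries, the first is shown). They run 5′ to 3′ on the strand of the gene, at chr4:141300971-141301270 (plus strand), chr1:77515039-77515338 (minus strand) and chr4:28812881-28813180 (plus strand). Capitals mark matches on either strand to 5 motifs: the cAMP response element core TGACGTCA, the AP-1 site TGANTCA, the CCAAT box CCAAT, the GC box GGGCGG and the TATA box TATAAA.
Epha2: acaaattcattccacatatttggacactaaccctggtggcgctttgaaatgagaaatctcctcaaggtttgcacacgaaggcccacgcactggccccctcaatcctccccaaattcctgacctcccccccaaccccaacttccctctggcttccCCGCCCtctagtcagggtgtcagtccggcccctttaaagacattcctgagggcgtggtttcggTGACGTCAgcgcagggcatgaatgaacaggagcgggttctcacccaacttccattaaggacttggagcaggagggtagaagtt
Epha4: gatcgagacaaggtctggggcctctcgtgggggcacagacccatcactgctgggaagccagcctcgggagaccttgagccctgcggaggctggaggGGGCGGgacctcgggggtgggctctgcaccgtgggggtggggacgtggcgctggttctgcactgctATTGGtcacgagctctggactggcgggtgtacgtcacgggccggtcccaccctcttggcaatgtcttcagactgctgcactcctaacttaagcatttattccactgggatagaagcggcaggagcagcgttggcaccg
Epha7: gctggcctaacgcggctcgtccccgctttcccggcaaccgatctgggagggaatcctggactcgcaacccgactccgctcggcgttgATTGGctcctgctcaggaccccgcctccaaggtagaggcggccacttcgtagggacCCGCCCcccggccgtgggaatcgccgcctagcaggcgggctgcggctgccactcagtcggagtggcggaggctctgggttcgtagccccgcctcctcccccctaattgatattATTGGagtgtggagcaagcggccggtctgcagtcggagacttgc
The cAMP response element core, a palindrome, began 33 bases before the Epha2 start site and was found in 1 of the 9 members, next to 1.79% of all 32851 windows in the RefSeq table. A GC box was found in 7 of 9 members (35.7% of all windows) and a CCAAT box in 6 of 9 (37.4%). Both Epha4 and Epha7 had a GC box and a CCAAT box, and Epha2 had a GC box only. The TATA box was found in Efnb2 alone (13.6% of all windows), and no member had an AP-1 site (7.81%). No matches overlapped. These matches describe letters in the windows and do not show binding.

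Epha4 and Epha7, receptors best known from axon guidance and from the developing nervous system, were the members with the largest change with age, and both fell. Epha4 (chromosome 1, 77367185 to 77515088, minus strand) had 15, 13.9 and 14.9 CPM in young control, 3.58, 1.55 and 1.63 in old control and 3.81, 5.35 and 2.76 in old EGCG libraries. Young libraries stood well above all old ones, and old control library 1 was above old EGCG library 3. Epha4 fell 6.42-fold with age, from 14.6 ± 0.60 to 2.25 ± 1.15 CPM (a log2 change of -2.68 with an SE of 0.249, edgeR adjusted p = 2.96e-13). Epha7 (chromosome 4, 28813131 to 28967499, plus strand) had 10.9, 8.91 and 6.66 CPM in young control, 0.550, 1.15 and 0.852 in old control and 1.76, 1.51 and 2.15 in old EGCG libraries. Its old control libraries held only 8, 17 and 11 counts, and the 3 groups did not overlap. Epha7 fell 10.3-fold, from 8.83 ± 2.13 to 0.849 ± 0.298 CPM (a log2 change of -3.36 with an SE of 0.326, edgeR adjusted p = 1.25e-12). Photoreceptor markers and inner retina markers moved the same way with age as these receptors: 26 of 26 and 19 of 20 were called lower, with medians of -4.24 and -2.86 on the log2 scale. The part of retinal RNA in the fall of Epha4 and Epha7 was not tested.

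The B-class receptors moved in opposite directions with age. Ephb2, a receptor of neurons and epithelia that binds B-class ephrins (chromosome 4, 136647539 to 136835988, minus strand), had 15.1, 12.8 and 14.5 CPM in young control, 7.70, 8.56 and 6.74 in old control and 6.30, 6.65 and 8.21 in old EGCG libraries. Every old library was below every young one, while the old groups overlapped. Its fall with age was 1.84-fold (a log2 change of -0.88 with an SE of 0.170, edgeR adjusted p = 1.32e-05). Ephb4, the receptor of venous endothelium and a partner of ephrin-B2 (chromosome 5, 137350109 to 137378669, plus strand), had 15.5, 11.5 and 14.1 CPM in young control, 23.1, 22.7 and 27.5 in old control and 17.7, 19.6 and 17.5 in old EGCG libraries. The 3 groups did not overlap, with old control highest and young control lowest. Its rise with age was 1.78-fold (a log2 change of 0.83 with an SE of 0.127, edgeR adjusted p = 1.55e-07). Of 11 endothelial markers tested 7 were called lower with age and none higher, and with EGCG 2 were lower and 1 higher, with medians of -1.35 and -0.30. Their part in the Ephb4 values was not tested. The summed mural markers had the same order of groups as Ephb4, with 2 of 6 called higher and 4 lower with age. That order was not particular to them. The mean sums of the lens epithelium, corneal epithelium, and macrophage and leukocyte markers had it too. The part of these lists in the Ephb4 values was not tested.

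Both A-class ligands rose with age. Efna1 encodes ephrin-A1, a ligand with high affinity for EphA2 (chromosome 3, 89271733 to 89281142, minus strand). It had 9.59, 6.86 and 8.25 CPM in young control, 15.3, 12.7 and 15.9 in old control and 13.6, 10.7 and 12.7 in old EGCG libraries. The old groups overlapped each other and lay above the young libraries. The rise with age was 1.77-fold (a log2 change of 0.83 with an SE of 0.162, edgeR adjusted p = 1.58e-05). Efna5 encodes ephrin-A5, the ephrin whose loss causes cataract in mice (chromosome 17, 62604184 to 62881317, minus strand). It had 17.9, 19.9 and 21.2 CPM in young control, 29.6, 34.5 and 33.2 in old control and 19.2, 26.4 and 23.5 in old EGCG libraries. Old control libraries were highest without overlap, and old EGCG library 1 lay within the range of the young libraries. The rise with age was 1.65-fold, from 19.7 ± 1.70 to 32.4 ± 2.54 CPM (a log2 change of 0.72 with an SE of 0.114, edgeR adjusted p = 3.07e-07).

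Of the B-class ligands, Efnb2 rose with age and Efnb1 was not called. Efnb2 encodes ephrin-B2, the arterial partner of EphB4 (chromosome 8, 8617434 to 8661242, minus strand), and had 53.0, 58.2 and 55.8 CPM in young control, 80.5, 80.2 and 74.4 in old control and 83.0, 80.8 and 82.2 in old EGCG libraries. The young libraries were lowest, and old control library 3 was the lowest of the old ones. Its rise with age was 1.41-fold (a log2 change of 0.49 with an SE of 0.0679, edgeR adjusted p = 1.42e-08). This call was lost on log2(FPKM + 1), where the change was 0.15 (limma adjusted p = 0.0764). Efnb1 encodes ephrin-B1, an X-linked ligand with a role in skull development (chromosome X, 99136130 to 99148991, plus strand). Its levels were the closest of the 9 members, at 38.8, 37.4 and 38.4 CPM in young control, 44.0, 40.1 and 45.6 in old control and 46.4, 47.2 and 47.2 in old EGCG libraries. The groups did not overlap on this scale, but the difference with age was 0.18 (95% interval 0.01 to 0.35, edgeR adjusted p = 0.057) and turned to -0.14 with library size only. Without old control replicate 2 it was called, at 0.23 (adjusted p = 0.0267).

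**Figure D2:**
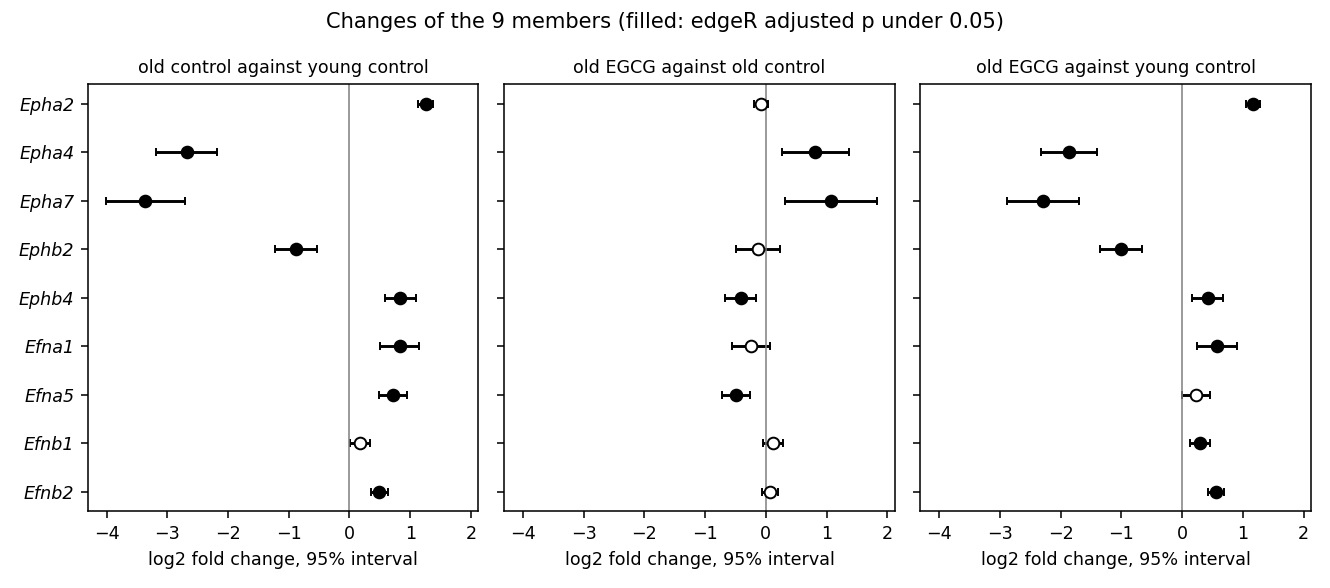
Log2 fold changes (points) with 95% intervals (bars) of the 9 members in the 3 comparisons; filled points have an edgeR adjusted p under 0.05. With age Epha4 and Epha7 lie furthest below 0, at -2.68 and -3.36, and Epha2 furthest above it, at 1.25.

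Levels of different genes were compared per gene length, on the deposited FPKM, the count of a gene over its length and the library total, which carry no TMM scaling. The lengths implied by that table ran from 1642 bases for Efna1 to 11058 for Ephb2. Epha2 was the most abundant member in every group, at 18.5 ± 0.773 FPKM in young control, 35.4 ± 0.678 in old control and 36.5 ± 1.47 in old EGCG libraries. Among all 17527 genes it ranked 2345 by mean FPKM in young control, 1259 in old control and 1289 in old EGCG libraries. Efnb1 came next, at 12.8 ± 0.319, 11.6 ± 0.933 and 13.8 ± 0.175 FPKM. In young control libraries the order went on with Efnb2 (5.74 ± 0.234), Efna1 (5.65 ± 0.965), Efna5 (3.96 ± 0.339), Ephb4 (3.53 ± 0.548), Epha4 (2.58 ± 0.122), Ephb2 (1.44 ± 0.132) and Epha7 (1.38 ± 0.334 FPKM). The neighbours Efnb2 and Efna1, Efna5 and Ephb4, and Ephb2 and Epha7 overlapped between libraries, and the other neighbours did not.

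The same order in old control libraries had Efna1 (8.02 ± 1.02) above Efnb2 (6.46 ± 0.140), followed by Efna5 (5.23 ± 0.495) and Ephb4 (5.06 ± 0.678), which overlapped. The last 3 places were taken by Ephb2 (0.624 ± 0.0660), Epha4 (0.317 ± 0.155) and Epha7 (0.107 ± 0.0379 FPKM). In old EGCG libraries Efna1 (7.39 ± 0.887) and Efnb2 (7.39 ± 0.0947) overlapped, as did Ephb4 (4.12 ± 0.259) and Efna5 (4.05 ± 0.645), and Ephb2 (0.628 ± 0.0932) and Epha4 (0.615 ± 0.200 FPKM). Epha7 was again last, at 0.247 ± 0.0450 FPKM.

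**Figure D3:**
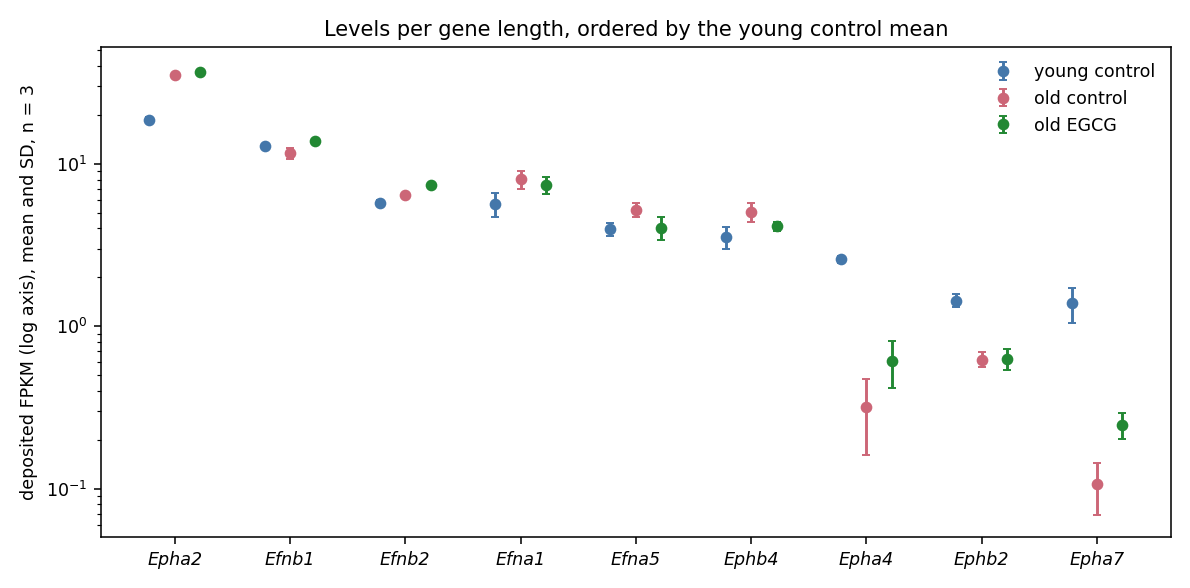
Deposited FPKM of the members on a log axis, as the mean and SD of 3 libraries a group, ordered by the young control mean. Epha2 is highest in all 3 groups, and Epha4, Ephb2 and Epha7 drop from 1.38 to 2.58 FPKM in young control to means under 0.70 FPKM in the old groups.

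The make-up of the receptor classes differed with age. Shares within a class of genes in 1 library do not depend on the scaling of that library, but they move with every gene of the class. Of the EphA genes beside Epha2, Epha1 stood at 85.2% of its young control mean CPM in old control libraries. The others stood at 5.51% (Epha3) to 25.5% (Epha5), and the summed photoreceptor markers at 5.96%. The part of retinal RNA in the shares was not tested. Epha2 took 56.4% ± 0.446 of the summed FPKM of the 9 EphA genes in young control, 90.5% ± 0.813 in old control and 89.5% ± 0.657 in old EGCG libraries (SD, n = 3 each). Young libraries were thus well apart from both old groups, which overlapped. The summed FPKM of these 9 genes was 32.9 ± 1.18, 39.1 ± 0.743 and 40.8 ± 1.40. Ephb4 took 24.2% ± 3.25, 43.3% ± 3.29 and 37.9% ± 0.584 of the 5 EphB genes, in the same order of groups. Among the 3 ephrin-B genes Efnb1 held a like share in each group, 62.5% ± 2.74, 62.7% ± 2.49 and 63.0% ± 0.304. Among the 5 ephrin-A genes Efna5 held 32.8% ± 3.10, 32.9% ± 3.43 and 30.0% ± 5.86, with overlapping ranges.

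In old EGCG against old control capsule, Efna5 and Ephb4 were lower and Epha4 and Epha7 higher. These are 2 members called higher and 2 lower, where 24.1% of all genes tested were called, 13.8% higher and 10.3% lower. With library size only 3086 genes were called higher and 611 lower, against 1894 and 1406, and 4 members were higher and 1 lower. The members' median was -0.08, next to -0.0038 over all genes, and it turned to 0.05 with library size only and to 0.11 scaled to lens fibre genes. Efna5 went from 32.4 ± 2.54 to 23.0 ± 3.63 CPM, a 1.41-fold decrease (a log2 change of -0.49 with an SE of 0.114, edgeR adjusted p = 0.00075). No library of 1 group overlapped the other, and the call held without any library in turn, with log2 fold changes from -0.60 to -0.38. On log2(FPKM + 1) it was not called (-0.31, limma adjusted p = 0.0711), nor was it on log2(FPKM + 0.1), the 2 losses among 19 alternatives. Of 18 lens fibre markers 11 were lower with EGCG and none higher, with sums of 43352 to 45122 CPM in old control and 37802 to 39104 in old EGCG libraries, and of 20 lens epithelium markers 8 were lower and 3 higher. Their part in the fall of Efna5 was not tested. Without old control replicate 3 Efna5 was the 1 member still called. Ephb4 went from 24.4 ± 2.67 to 18.3 ± 1.16 CPM, a 1.33-fold decrease (a log2 change of -0.41 with an SE of 0.126, edgeR adjusted p = 0.0113). That call was lost without old control replicate 3, the highest library (-0.32, adjusted p = 0.0848), and with library size only (-0.29, adjusted p = 0.0932). It was also lost scaled to lens fibre genes and on both FPKM scales. These are 5 of 19 alternatives, and the smallest change was -0.22.

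The receptors Epha4 and Epha7 were higher with EGCG at low counts. Epha4 had 52, 23 and 21 counts in old control and 52, 78 and 36 in old EGCG libraries, and the groups overlapped. Its log2 fold change was 0.82 (SE 0.276, edgeR adjusted p = 0.0241). Without old control replicate 1 it was 1.33, and the call was lost without old control replicate 2 (0.60), old control replicate 3 (0.64) or old EGCG replicate 2 (0.54). The Epha4 call was also lost on both FPKM scales and with only the 2 groups compared. These are 6 of 19 alternatives, and the smallest change was 0.29. Epha7 had 8, 17 and 11 counts in old control and 24, 22 and 28 in old EGCG libraries, with no overlap. Its log2 fold change was 1.07 (SE 0.377, adjusted p = 0.0313). The call was lost without old control replicate 1 (0.83) or 3 (1.07) and without old EGCG replicate 1 (1.09) or 3 (0.93). The Epha7 call was also lost on log2(FPKM + 1) and with only the 2 groups compared. These are 6 of the 18 alternatives that gave a value, and the smallest change was 0.17. Photoreceptor and inner retina markers were also higher with EGCG, in 26 of 26 and 16 of 20 cases, with medians of 3.08 and 1.90 on the log2 scale. Their part in the rise of Epha4 and Epha7 was not tested.

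The other 5 members did not pass the test with EGCG. Efna1 differed by -0.24 (95% interval -0.56 to 0.07), Ephb2 by -0.13 (-0.49 to 0.24), Efnb1 by 0.12 (-0.05 to 0.29) and Efnb2 by 0.06 (-0.07 to 0.20) on the log2 scale. For Epha2, Efnb1 and Efnb2 these intervals lie within 0.30 of 0, but they do not cover the choice of scaling. Over the 19 alternatives Efnb1 reached 0.31 and was called in 4, and Efnb2 reached 0.26 and was called in 2. Efnb1 and Efnb2 were called higher with library size only, at 0.25 (adjusted p = 0.0276) and 0.19 (adjusted p = 0.0298), where the median of all genes was 0.12. The sign for Ephb2 turned on that scale, to 0.0032.

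Old EGCG libraries were also set against young control libraries, which shows how far members in treated old capsule were from young levels. Here 5 members were called higher and 3 lower, where 63.6% of all genes were called, 32.3% higher and 31.4% lower. With library size only 3098 genes were higher and 5575 lower, against 4424 and 4301, and 3 members were called each way. The comparison shares libraries with the other comparisons, so its values are not independent of theirs. Epha2 was 2.25-fold higher (a log2 change of 1.17 with an SE of 0.0585, edgeR adjusted p = 2.38e-22), Efnb2 1.47-fold, Efna1 1.5-fold, Ephb4 1.34-fold and Efnb1 1.23-fold higher. Epha7 was 4.89-fold, Epha4 3.64-fold and Ephb2 2.01-fold lower. Efna5 was the member not called, with 23.0 ± 3.63 CPM next to 19.7 ± 1.70 (log2 difference 0.23, 95% interval -0.01 to 0.46, adjusted p = 0.0841). Without old EGCG replicate 1, its lowest library, Efna5 was called higher (0.34, adjusted p = 0.0134), and without old EGCG replicate 2 the difference was 0.12. The Ephb4 call was lost without young control replicate 2 (0.31, adjusted p = 0.0618). The Efna1 call was lost with the length trend removed (0.25, adjusted p = 0.188), where Efna5 was called (0.38). Efnb1 and Ephb4 were not called with library size only (0.10 and 0.22).

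The remaining 13 ephrin and Eph genes were lower with age in 10 cases and higher in 1, with a median log2 fold change of -1.92. Of all genes tested 33.8% were called lower with age and 35.4% higher. Efna4, a further A-class ligand, was the gene that rose, from 1.51, 1.99 and 1.71 CPM in young control to 4.61, 4.18 and 4.03 in old control libraries (2.45-fold, edgeR adjusted p = 0.00121). It lies beside Efna1 and Efna3 on chromosome 3, between 89271733 and 89338028, and Efna3 fell 3.07-fold. The Efna3 call was lost without young control replicate 3 (log2 fold change -1.37, adjusted p = 0.058). Epha8 (10.8-fold) and Epha10 (10.5-fold) fell most among genes with at least 10 CPM in young control libraries. Epha5 fell 3.88-fold, Ephb1 2.6-fold, Ephb6, a receptor without kinase activity, 1.88-fold and the B-class ligand Efnb3 3.78-fold. Epha3, Epha6 and Efna2 fell at counts of at most 6 per old control library: Epha3 from 32, 53 and 62 to 0, 4 and 3 counts, Epha6 from 18, 20 and 24 to 4, 2 and 0 and Efna2 from 12, 25 and 26 to 2, 3 and 6. Epha1 and Ephb3 were not called, at -0.23 (95% interval -0.59 to 0.14) and 0.26 (0.00 to 0.52, adjusted p = 0.0667). Epha1 was called lower with library size only (-0.55, adjusted p = 0.00681) and Ephb3 changed sign (-0.06), whereas with the length trend removed Ephb3 was called higher (0.35, adjusted p = 0.0151).

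With EGCG, 5 of these 13 were higher and 2 lower than in old control, with a median of 0.62. Of all genes tested 13.8% were called higher and 10.3% lower in that comparison. Epha8, a neural receptor, went from 1.10, 1.01 and 0.775 to 4.91, 4.32 and 5.52 CPM without overlap (5.04-fold, edgeR adjusted p = 6.78e-09), and Epha10 rose 2.64-fold (adjusted p = 0.000662). Epha3, Efna2 and Efna3 were the others called higher, each lost without 1 of several libraries. Epha3 had 0, 4 and 3 counts in old control and 11, 8 and 12 in old EGCG libraries, and its log2 fold change of 2.13 was 1.55 and not called without old control replicate 1, and not called without old EGCG replicate 3. Efna2 (1.88, adjusted p = 0.0343) lost its call without any of 5 libraries and Efna3 (1.48, adjusted p = 0.0458) without any of 7. Epha1, an epithelial receptor, fell 1.98-fold, from 9.22, 11.6 and 9.06 to 5.57, 5.49 and 3.99 CPM (adjusted p = 0.000113). Efna4 fell 2.16-fold to 2.93, 1.99 and 0.997 CPM (adjusted p = 0.0164). This call was lost without old EGCG replicate 3 (-0.80, adjusted p = 0.118) and, at an adjusted p that rounds to 0.05, without old control replicate 1. Instead of 7 genes of this list, 3 were called without old control replicate 1 and 4 without old EGCG replicate 3. The 6 not called were Epha5 (0.47), Epha6 (0.88), Ephb1 (0.32), Ephb3 (-0.26), Ephb6 (0.11) and Efnb3 (0.62). Epha5 was called higher without old control replicate 2 (0.68, adjusted p = 0.0402), with library size only (0.60, 0.0333) and scaled to lens fibre genes (0.66, 0.0148). Efnb3 was called higher scaled to lens fibre genes (0.81, adjusted p = 0.0281) and on log2(FPKM + 0.1) (0.63, limma adjusted p = 0.0446). Against young control, old EGCG libraries had 9 of the 13 lower and none higher, where 31.4% of all genes tested were lower and 32.3% higher.

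**Figure D4:**
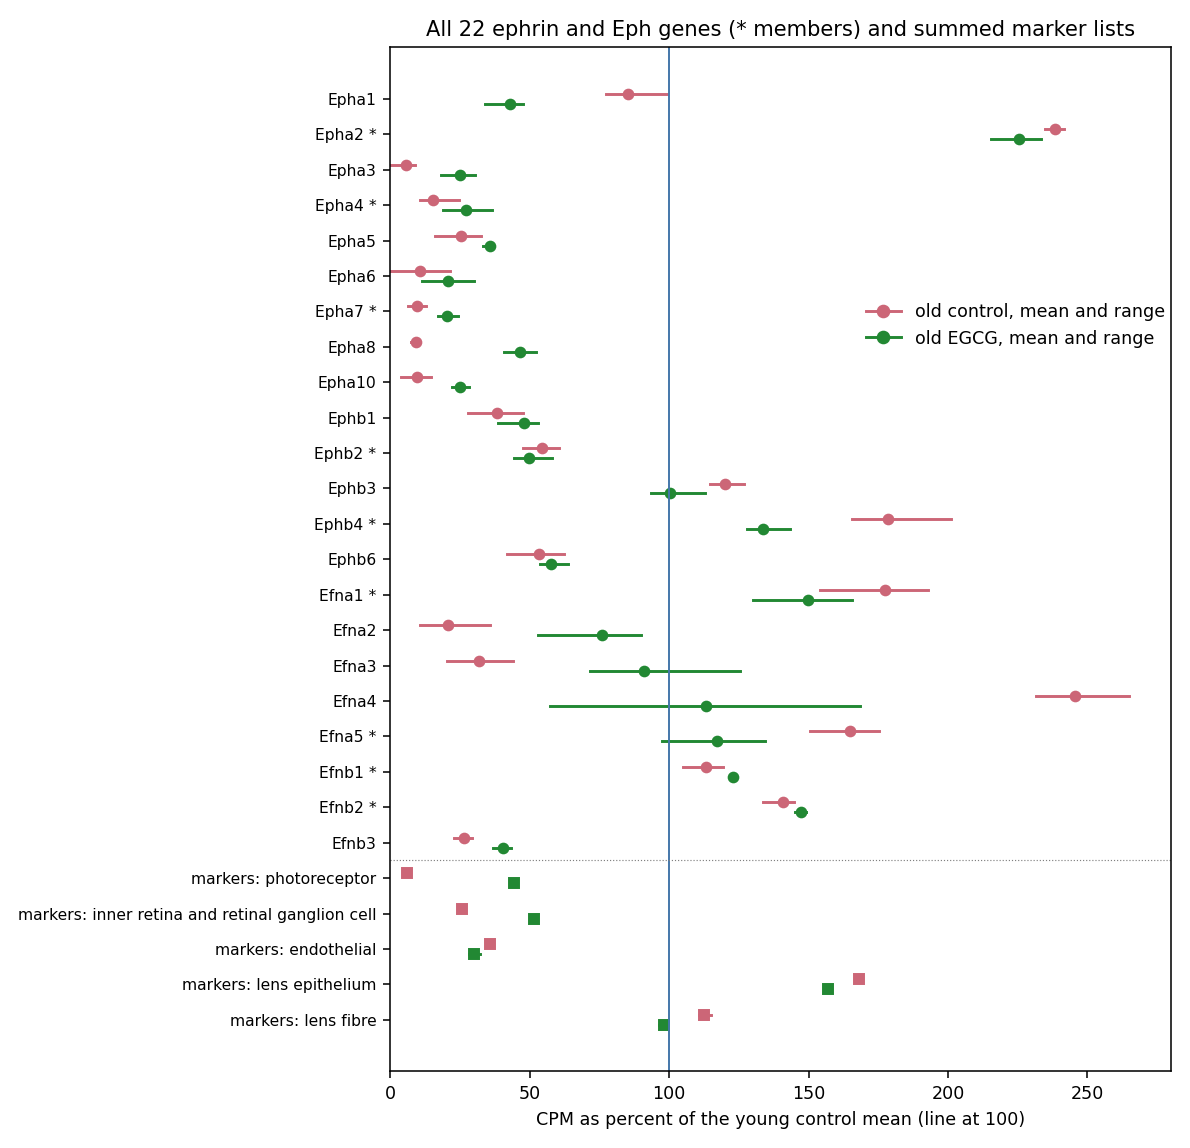
Mean CPM of all 22 ephrin and Eph genes, and summed CPM of 5 marker lists (squares), in old control and old EGCG libraries as a percent of the young control mean, with the range of 3 libraries (lines); asterisks mark the 9 members. Epha2, Ephb4, Efna1, Efna4, Efna5 and Efnb2 lie above 130% in old control, while Epha3, Epha4, Epha6, Epha7, Epha8 and Epha10 lie below 20%, as the photoreceptor list does at 5.96%.

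Genes that work with Eph receptors inside the cell were read from a list of 36 signalling partners. With age 19 were called higher and 9 lower, and their median was 0.35. Scaled by library size only, 15 were higher, 14 were lower and the median was 0.02. Grb2, an adaptor that links receptors to Ras, rose 2.25-fold (56.1 ± 0.459 to 126 ± 7.15 CPM, adjusted p = 1.01e-21). Rhoa rose 1.90-fold and Rac1 1.55-fold, both small GTPases that shape the actin skeleton. Cttn, cortactin, an actin-binding substrate of Src, rose 1.69-fold. With TMM factors 28 of 36 were thus called with age, beside 69.2% of all genes tested. With EGCG 1 partner was higher and 7 were lower, 8 of 36 beside 24.1% of all genes, so the count is near the background and is no result about the list. The median was -0.06. With library size only 10 were higher and 1 lower, and the median was 0.06. Without old EGCG replicate 2 or 3, 5 partners were called. Ngef, the exchange factor ephexin-1 that binds EphA receptors, fell 1.41-fold from 61.0 ± 4.75 to 43.3 ± 3.0 CPM (adjusted p = 7.85e-07). Arhgef15, the related ephexin-5, rose 6.64-fold from 0.379 ± 0.0312 to 2.56 ± 0.467 CPM. It had only 5 to 6 counts in old control and 27 to 41 in old EGCG libraries, and with age it fell 8.53-fold. Rac1 (-0.22) and Src (-0.31), a kinase recruited by Eph receptors, were lower, and neither was called with library size only (-0.09 and -0.18).

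The list of 8 cell junction genes holds cadherins and catenins of the cell contacts that EphA2 and ephrin-A5 help to keep in the lens. Beside these it holds Tjp1 and Afdn. With age 7 were called higher and none lower, beside 35.4% and 33.8% of all genes tested, and the median was 0.54. Of the 7, Tjp1 had overlapping groups (1.09-fold, edgeR adjusted p = 0.0446). Afdn was the gene not called (1.09-fold, edgeR adjusted p = 0.103). With DESeq2 or with only the 2 groups compared, 6 were called. Scaled by library size only, 6 were higher and 2 lower. Jup, plakoglobin, rose 2.95-fold (22.3 ± 3.25 to 65.8 ± 4.79 CPM, adjusted p = 3.12e-20), and Cdh1, E-cadherin of the lens epithelium, 1.83-fold. The catenins Ctnna1 (1.57-fold) and Ctnnb1 (1.43-fold) rose as well. With EGCG Cdh1 (1.35-fold, adjusted p = 4.03e-07), Ctnnb1 (1.15-fold) and Ctnna1 (1.17-fold) were lower and none was higher. Of all genes tested 10.3% were called lower with EGCG and 13.8% higher. With library size only 1 of the 8 was called, lower, whereas scaled to lens fibre genes 2 were called higher and 1 lower. The Ctnna1 and Ctnnb1 calls were lost with library size only, at -0.10 and -0.08.

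The genes most like each member were taken by Pearson's r of log2(CPM + 0.5) over the 9 libraries, among 10372 candidates (10373 for Epha7). Since the 3 groups set most of this likeness, it is given as a description. For Epha2 they were Palm (0.9989), Eif3l (0.9985) and Lsamp (0.9984), and 2641 candidates had r over 0.9. For Efna5, whose level was highest in old control alone, they were Fas (0.9671), Susd2 (0.9584) and Spon1 (0.9551), with 90 candidates over 0.9. The nearest genes to Ephb4 were Picalm (0.9949), Mdfic (0.9736) and Fosl2 (0.9735), with 320 over 0.9. Epha4 was nearest to Kalrn (0.9922), Cep135 (0.9881) and Cep57 (0.9849), and Epha7 to Snapc4 (0.9959), Bptf (0.9921) and Prkca (0.9908). For Epha4 1031 candidates had r over 0.9, and for Epha7 1461. Kalrn is itself on the list of signalling partners, which with so many candidates over 0.9 shows no particular link to Epha4. Efna1 was nearest to Strn3 (0.9794), Llgl1 (0.9748) and Gnb1l (0.9656), Efnb1 to Rp2 (0.9704), Clpb (0.9682) and Crebl2 (0.9672), Efnb2 to Ddrgk1 (0.9974), Thap12 (0.9973) and Npdc1 (0.9969) and Ephb2 to Rbm25 (0.9857), Phka2 (0.9855) and Sirt7 (0.9823).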

How the data were processed

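RNA of anterior lens capsule was sequenced in 9 libraries, 3 each from young control, old control and old EGCG-treated mice; per the labels' protocols the kit was SMARTER mRNA-Seq. The build named, per the submitters' processing notes, is GRCm38 (mm10). Aligner, counter, annotation and strandedness were not given in the sources used here. Reads of overlapping genes on opposite strands may therefore not be told apart. What the authors deposited were whole-number counts per gene symbol without normalization, and FPKM values, which in all 138164 entries with a count equalled the deposited count over 1 length per gene and the library total, within 6.98e-05%. Samples were grouped by their titles.

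Counts were tested with the quasi-likelihood test of edgeR 4.0.16 (R 4.3.3), two-sided, with TMM factors (0.881 to 1.13), after filterByExpr left 13711 genes. A model with a mean per group was fitted to all 9 libraries, with Benjamini-Hochberg adjustment over all genes tested and a threshold of 0.05. The biological coefficient of variation was 7.89%. The SE was taken from the change and its F statistic. Libraries of a group correlated with r between 0.9931 and 0.9949 on log2(CPM + 1) across genes, which are not independent replicates, and differed by 2.58 to 7.57 times sampling noise, so none was a repeat deposit. Intervals are 95% intervals. Alternatives were DESeq2 1.42.0, limma 3.58.1 on log2(FPKM + 1) and log2(FPKM + 0.1), other scalings and filters, a replicate block and leaving out each library. The edgeR, DESeq2 and log2(FPKM + 1) fits were tested on simulated data.

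The members and lists were chosen with earlier results of these data known. Named genes are all members, the other tested family genes, up to 4 called genes with the smallest p per partner list and comparison, and for each member the 3 most alike genes with at least 5 CPM, leaving out predicted-gene and RIKEN symbols. Promoters are from RefSeq, and gene positions from GENCODE M21 on GRCm38.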

Additional observations from a re-analysis of the deposited data

How the results depend on the processing

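The age calls of Epha2, Epha4, Epha7, Efna1, Efna5, Ephb2 and Ephb4 held their direction and side of the threshold under every alternative that gave a value, and Efnb2 under all but limma on FPKM. The count of 8 members called with age lay between 7 and 9, and that of 8 in old EGCG against young control between 6 and 9. The count of 4 with EGCG was less stable: it was 1 on log2(FPKM + 1), 2 on log2(FPKM + 0.1), 2 with only the 2 groups compared, and 1 to 4 when 1 library was left out, being lowest without old control replicate 3. On log2(FPKM + 1) the 1 member called was Efnb1, higher, so none of the 4 main calls held there. The calls of Efna5 and Ephb4 were lost on both FPKM scales, and those of Epha4 and Epha7 with only the 2 groups compared. Differences that were not called changed sign with library size only, scaled to lens fibre genes, on log2(FPKM + 1) and on log2(FPKM + 0.1), in that order: for Efnb1 with age to -0.14, -0.10, -0.13 and -0.14, for Ephb3 with age to -0.0593, -0.0188, -0.0473 and -0.0583, for Epha2 with EGCG to 0.0471, 0.11, 0.0453 and 0.0464, and for Ephb2 with EGCG to 0.00322, 0.0677, 0.00261 and 0.00389. Ephb6 with EGCG ranged from -0.0381 to 0.24 when 1 library was left out. The causes were not tested.

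Some list counts with EGCG also fell by over 1.5 times. Of the 13 other family genes 4 instead of 7 were called with only the 2 groups compared. The filter at a mean of 5 CPM left 6 of these 13 to test, of which 4 were called with age, 3 with EGCG and 5 in old EGCG against young control, so these lower counts come with fewer genes tested. Of the signalling partners 5 instead of 8 were called on either FPKM scale or with only the 2 groups compared. On either FPKM scale 1 junction gene instead of 3 was called. Same-numbered libraries of different groups did not deviate together (correlations from -0.0056 to 0.0329 in 9 pairs), so the numbers were not taken to pair samples. With the replicate block 8, 4 and 8 members were called in the 3 comparisons, as without it, and Efna3 with EGCG lost its call (adjusted p = 0.0703). The filter at a mean of 5 CPM dropped Epha7. Depth limits the statements on Epha4, Epha7, the partner Arhgef15 and the family genes with a few counts in old control libraries.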
